A study of Rattus norvegicus with 3 samples.

Results

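Phase II conjugation enzymes attach a polar group to drugs, toxins, hormones and oxidised lipids so that the kidney and liver can excrete them. Glutathione S-transferases (GST) add glutathione, UDP-glucuronosyltransferases (UGT) add glucuronic acid and sulfotransferases (SULT) add sulfate. In the kidney these enzymes are found above all in tubule cells, where substrates taken up from blood or filtrate are conjugated and exported. The enzymes described here were all genes whose name in the array files begins with Gsta, Gstm, Gstp, Gstt, Gstk, Gsto, Gstz, Mgst, Ugt1, Ugt2 or Sult. This gave 48 genes with 58 probes, out of 19394 named genes and 30367 probes.

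The kidneys came from male spontaneously hypertensive rats on a Wistar background, a strain that develops high blood pressure with age. Rats were aged 8 to 10 weeks and weighed 280 to 330 g, and each of the 3 groups held 10 animals. The control group drank about 3 mL of water a day, the low-dose group a hydrolysate of blue mussel protein at 10 mg/kg per day, and the high-dose group the same hydrolysate at 20 mg/kg per day, each for 4 weeks. RNA of 4 rats per group was pooled for 1 single-colour array per group. With 3 arrays and no replicate, no test between groups could be made, the spread between animals is not known, and precision is limited by how few arrays there are. The values below are net spot intensities scaled so that the 75th percentile is equal on the 3 arrays, and a difference is on the log2 scale, where 1 is 2-fold. Because the tissue is whole kidney, fewer cells of a type and less RNA per cell cannot be told apart.

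Above background means here that the signal-to-noise ratio reached 3 in at least 50% of a probe's spots. This was so for 15317 probes in control, 15794 at the low dose and 16605 at the high dose. All 20 proximal tubule markers, among them the phosphate carrier Slc34a1 and the organic anion carrier Slc22a6, were above background on every array, as the label kidney requires. On probes printed 10 times per array, spots of 1 array varied with a median SD (log2) of 0.24 in control, 0.18 at the low dose and 0.19 at the high dose. For a difference between arrays that spread was 0.19 to 0.20 for the dimmest genes against control and 0.09 to 0.13 for all brighter ones. This spread is technical and says nothing about how animals differ. Of the 30 measured enzymes 29 rest on 1 spot per array, so the spot spread applies to each of them in full.

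Of the 48 enzymes, 30 stood above background on at least 1 array and 28 on all 3, against 11909 genes above background on at least 1 array over the whole series. All 4 alpha class GST genes were measured, 6 of 8 mu class, 7 of 9 in the pi, theta, kappa, omega and zeta classes and all 3 microsomal GST genes. Of the UGT1 and UGT2 genes 4 of 11 were measured, and of the sulfotransferases 6 of 13. Not above background on any array were 17 genes with 19 probes, of which 7 were sulfotransferases, 6 UGT2 genes and 4 GST genes. They were Sult1c3, Sult1d1, Sult2a1, Sult2a2, Sult2a6, Sult2b1 and Sult6b1, Ugt2a1, Ugt2a3, Ugt2b, Ugt2b1, Ugt2b10 and Ugt2b17, and Gstm3, Gstm6, Gsto2 and Gstt4. The highest signal-to-noise ratio among them was 2.67 in control, 2.43 at the low dose and 2.57 at the high dose. The remaining gene, Ugt1a9, had no usable value, because the pixels of its control spot gave an intensity of 34.2 by their mean and 11.4 by their median and the spot was left out. At the low and high dose Ugt1a9 was not above background, with intensities of 12.5 and 21.9.

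The enzyme class with the highest median difference from control at both doses was the mu class of GST, whose spots were dim. Normexp background correction, run here with a constant of 50 added to each intensity, shrinks differences between dim spots. With it the UGT2 genes ranked above the mu class at the low dose. At the high dose the pi, theta, kappa, omega and zeta classes did. No enzyme above background on both arrays differed by 2-fold at either dose. Among all genes with signal on both arrays, 2.48% reached 2-fold above control at the low dose and 0.716% reached 2-fold below it. At the high dose these shares were 0.857% and 0.162%. At 1.5-fold, 1 of 28 enzymes stood higher at the low dose, Gstm1, and 2 of 29 at the high dose, Gstm1 and Gstm2. Over all genes 6.62% were at least 1.5-fold higher at the low dose and 3.71% at the high dose. None of these enzymes was at least 1.5-fold lower, where 4.6% and 3.82% of all genes were. Mgst2 and Sult4a1, each not above background on 1 array, are outside these counts where that array is compared and are described with their classes. The median difference of the enzymes was -0.15 at the low dose and -0.02 at the high dose (0.02 with quantile normalization), and that of all genes was -0.10 and -0.04.

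**Figure D1:**
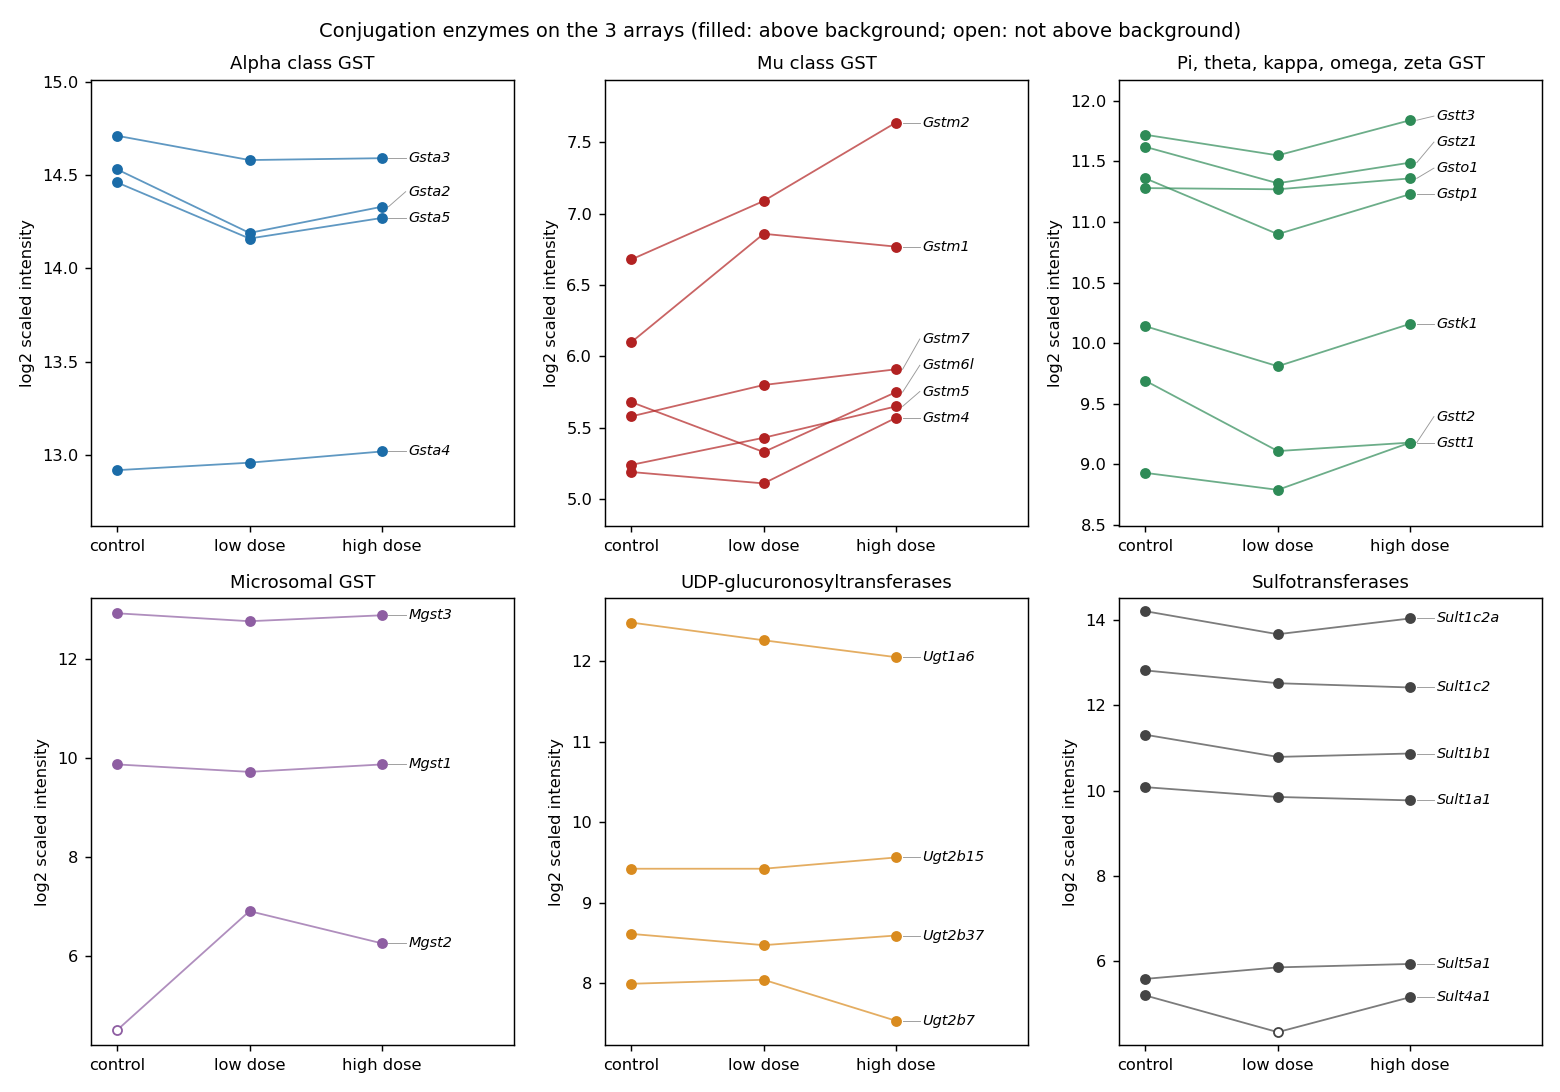
Scaled intensity (log2, vertical axis) of the 30 measured conjugation enzymes in control, at the low dose and at the high dose, in 6 panels by enzyme class. Each line joins the 3 values of 1 gene, from 1 array per group, and open circles mark values not above background (Mgst2 in control, Sult4a1 at the low dose); the vertical scales differ between panels, and the height of different genes is not comparable because their probes differ.

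Mu class enzymes are cytosolic GSTs that conjugate epoxides, quinones and other electrophiles, and several are known as targets of inducers of detoxification. Gstm2 had an intensity of 103 in control, 136 at the low dose and 200 at the high dose, which is 1.33-fold and 1.94-fold above control. Gstm1 had 68.5 in control, 116 at the low dose and 109 at the high dose, 1.70-fold and 1.60-fold above control. The doses thus lay in a different order in these genes, with the high dose above the low dose by 0.55 (log2) in Gstm2 and below it by 0.09 in Gstm1. The differences of Gstm1 from control were 5.87 and 5.64 times the spot spread of genes of that brightness at the low and high dose, and those of Gstm2 3.14 and 7.99 times.

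The other mu class genes were dimmer and differed less. Gstm5 stood at 37.7, 43.2 and 50.2 in control, low dose and high dose, and Gstm7 at 47.9, 55.7 and 60.2. Gstm4 stood at 36.5, 34.6 and 47.4. Its other probe gave 37.7, 36.5 and 42.9. Gstm6l, a gene similar to Gstm6, stood at 51.4, 40.3 and 53.8. At the low dose 4 of the 6 measured mu genes stood above control and Gstm4 and Gstm6l stood below it, with a class median of 0.21. The low-dose difference of Gstm4, -0.08, turned above 0 under 3 of 10 alternatives, to 0.12 with the authors' deposited values. At the high dose all 6 stood above, and the class median was 0.39. Normexp left class medians of 0.00 and 0.06. The constant of 50 it adds is close to the intensities of the dimmer mu class genes and by itself shrinks their differences. How much of the shift comes from that constant was not tested. With normexp Gstm1 was 0.44 and 0.36 above control at the low and high dose and Gstm2 0.26 and 0.69. Gstm5 and Gstm7 were then within 0.05 of control at both doses, and Gstm6l at the high dose was at -0.05.

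Promoters of 4 mu class genes, which lie near each other on rat chromosome 2, are shown because this class held the highest differences among enzymes above background on all arrays, while these members did not share the regulatory motif searched for. The antioxidant response element is the site through which NRF2, the main regulator of the response to electrophiles, acts on many conjugation enzymes. Its core was searched as TGACNNNGC on both strands in the 250 bases before each gene's start, in RefSeq promoters of the build GRCr8. It was present in 10.1% of 33469 promoters and in 4 of 23 measured enzymes with a promoter in that table, Gstm5, Gstm7, Gstp1 and Gstz1. Gstm5 held it at -113 and -53 and Gstm7 at -14 from the start. It was not found in the 250 bases of Gstm1 and Gstm2. The last 120 bases before the start follow, 5′ to 3′ on the gene's strand, with the core in capitals. They are chr2:198343384-198343503 (minus strand) for Gstm1, chr2:198316918-198317037 (minus) for Gstm2, chr2:198219649-198219768 (plus) for Gstm5 and chr2:198260320-198260439 (minus) for Gstm7.
Gstm1: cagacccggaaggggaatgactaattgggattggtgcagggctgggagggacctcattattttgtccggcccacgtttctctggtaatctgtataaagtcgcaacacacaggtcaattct
Gstm2: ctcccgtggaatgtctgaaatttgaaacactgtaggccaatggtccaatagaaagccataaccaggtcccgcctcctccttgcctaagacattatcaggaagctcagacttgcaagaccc
Gstm5: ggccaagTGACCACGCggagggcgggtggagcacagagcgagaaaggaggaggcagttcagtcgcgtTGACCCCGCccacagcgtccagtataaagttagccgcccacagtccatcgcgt
Gstm7: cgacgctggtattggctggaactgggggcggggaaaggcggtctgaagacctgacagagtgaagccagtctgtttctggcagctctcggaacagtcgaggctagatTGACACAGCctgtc
The core of the xenobiotic response element, the site of the aryl hydrocarbon receptor, was searched as GCGTG in the same way. It was present in 25.9% of all promoters and in 7 of the 23 enzymes, which were Gsta2, Gsta4, Gstm4, Gstm5, Gstp1, Mgst3 and Ugt1a6. In Gstm5 the site at -109 overlaps the antioxidant core at -113. A match is a description of these letters and not a site shown to be bound.

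Microsomal GSTs are membrane proteins, some of which also make leukotrienes or reduce lipid peroxides. Mgst2, which can conjugate glutathione to leukotriene A4, was not above background in control, with an intensity of 22.8 and a signal-to-noise ratio of 0.786. At the low dose it stood at 120 and at the high dose at 76.6, with ratios of 9.92 and 7. Against its own control value, this is 5.26-fold higher at the low dose and 3.36-fold higher at the high dose. Because that control value was not above background, these folds are uncertain and are not lower bounds. With normexp the differences were 1.16 and 0.68 (log2) in place of 2.39 and 1.75. The high dose stood below the low dose by 0.65, and 1.5-fold or more in this direction was reached by 1 of 29 enzymes, Mgst2, and by 5.45% of all genes. The value rests on 1 probe with 1 spot per array. Mgst1, which is abundant in the endoplasmic reticulum and outer mitochondrial membrane, stood at 935, 841 and 936 in control, low dose and high dose, and Mgst3 at 7747, 6956 and 7519. Both differed from control by at most 0.16.

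Markers of several cell types outside the tubule epithelium, and genes of tubular injury, had their highest summed level at the low dose, as Mgst2 did, while podocyte and blood cell markers did not. Macrophage markers measured on all arrays (8 of 10 listed) had a summed intensity of 15701 in control, 23151 at the low dose and 14850 at the high dose, with median differences of 1.18 and 0.14. Fibroblast and matrix markers (7 of 10) summed to 3673, 11527 and 4017, and adipocyte markers (7 of 12) to 1064, 8035 and 3912. Endothelial markers (6 of 9) summed to 7868, 9305 and 7732, and tubular injury genes (10 of 12) to 4758, 21939 and 9286. Urothelial markers (3 of 9) summed to 10313, 12193 and 10365. The urothelial genes Upk1b, Upk2 and Upk3a, like Mgst2, were not above background in control and stood highest at the low dose. Genes of other lists did so as well, among them Cfd (adipocyte), Cd163 (macrophage), Fbn1 (fibroblast), Havcr1 (tubular injury), S100a8 and S100a9 (blood cell). In the urothelial list Krt7 was at 0.21 and -0.02 from control at the low and high dose, and Krt19 at 0.39 and 0.00. Within the tubule, principal cell markers (9 of 9) summed to 21909, 42888 and 29211, also highest at the low dose. The sums of the other tubule lists were not highest there. The thin limb sum (6 of 7 markers) was 15580, 15248 and 15236, most of it from Cryab (13272, 10299 and 12644). By gene, thin limb markers had medians of 1.68 at the low dose and 0.95 at the high dose, and 4 were at least 2-fold higher at the low dose. Podocyte markers (6 of 7) summed to 2166, 1884 and 1728, highest in control, and blood cell markers (4 of 9) to 13781, 16895 and 17174, highest at the high dose. In several lists 1 bright gene gave most of the sum. In control these were Hbb (13583) for blood cells, Krt7 (10044) for urothelium, Lyz2 (13326) for macrophages and Plvap (4589) for endothelium. The blood cell medians were 0.57 at the low dose and 0.48 at the high dose. Of the 6 endothelial markers, 3 stood above control at the low dose. The adipocyte markers Plin1, Plin4 and Lep, the macrophage marker Mrc1 and the fibroblast markers Lum and Postn had no value above background on any array. The part of these cells in the values of Mgst2 and of the mu class genes was not tested.

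Alpha class GSTs are the main cytosolic GSTs of proximal tubule and liver and also reduce lipid hydroperoxides. Gsta2 stood at 23630 in control, 18693 at the low dose and 20630 at the high dose, and Gsta5 at 22551, 18283 and 19694. Both were lowest at the low dose, with differences of -0.34 and -0.30, and at -0.20 at the high dose. The gene that the files call Gsta3 carries an accession that RefSeq now names Gsta1. It was printed on 10 spots, and its mean intensity was 26847 ± 3076 in control, 24459 ± 1115 at the low dose and 24665 ± 931 at the high dose (SD over 10 spots of 1 array). Its control spots ran from 19416 to 29937 and overlapped all spots of both doses, so its differences of -0.13 and -0.12 were within the spread of the spots. Gsta4, which acts on the lipid peroxidation product 4-hydroxynonenal, stood at 7733, 7946 and 8297. The 0.04 and 0.10 by which it exceeded control turned to -0.27 and -0.14 with the authors' deposited values.

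The name Gsta5 in the files covers probes of Gsta5 and, by current RefSeq names, of Gsta3. The value above is from the Gsta5 probe. The probes of the other gene stood at 11392, 9726 and 9889, and at 573, 507 and 766, in control, low dose and high dose. At the high dose the latter was 0.42 above control while the other 2 were at -0.20. Alpha class genes are similar in sequence, and how far each probe detects its neighbours was not tested.

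**Figure D2:**
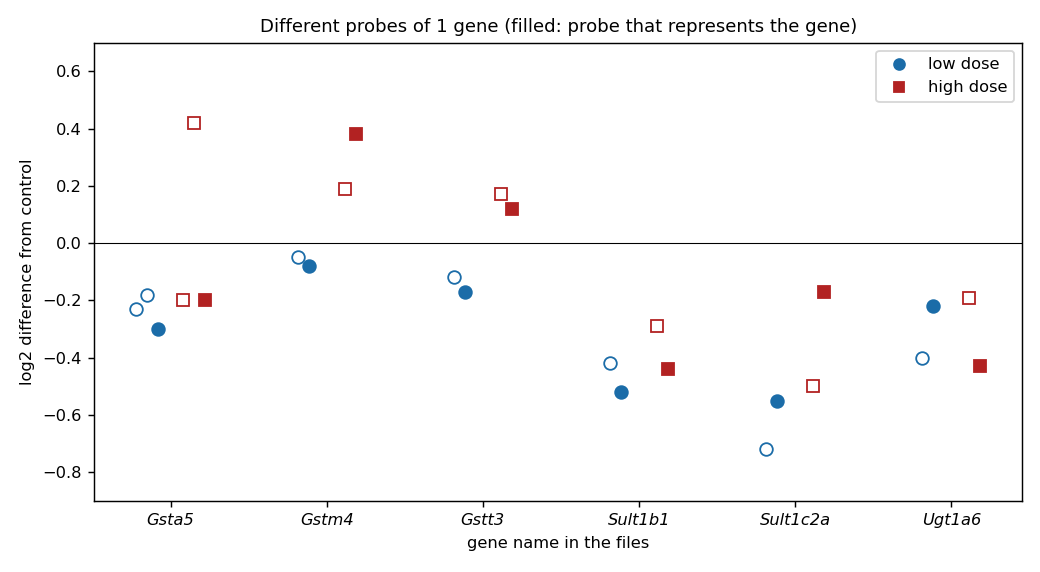
Log2 difference from control (vertical axis) at the low dose (blue circles) and the high dose (red squares) for the 6 enzymes with more than 1 probe above background on all arrays. Filled symbols are the probes that represent the gene; probes of 1 gene stood on the same side of control except for Gsta5 at the high dose, where the files join probes of different genes.

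In the pi, theta, kappa, omega and zeta classes the low-dose array was the lowest of the 3 in all 7 measured genes, as it was in 42.8% of all genes. All 7 stood below control at the low dose, where 63.6% of all genes did, with a median of -0.30. The omega class member Gsto1 did so by 0.01 only. All 7 stood higher at the high dose than at the low dose, by a median of 0.29. Against control the median at the high dose was 0.02, and 4 genes lay above it and 3 below. Gstp1, the pi class enzyme of distal tubule and many epithelia, stood at 2620 in control, 1906 at the low dose and 2403 at the high dose. Its difference of -0.46 at the low dose was 4.59 times the spot spread, and that of -0.12 at the high dose 1.39 times. Gstk1, a mitochondrial and peroxisomal GST, stood at 1130, 897 and 1146, and Gstz1, an enzyme of tyrosine breakdown, at 3140, 2550 and 2885. Gsto1, the omega class enzyme that reduces dehydroascorbate, was nearly level at 2489, 2472 and 2636, and its low-dose difference of -0.01 turned above 0 under 5 of 11 alternatives.

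Theta class GSTs act on small halogenated compounds and sulfate esters, and among them Gstt2 stood farthest below control. Gstt2 had an intensity of 825 in control, 553 at the low dose and 582 at the high dose, 1.49-fold and 1.42-fold lower, just short of the 1.5-fold line. Correction for position on the array left -0.42 and -0.38 in place of -0.58 and -0.50, nearer to control than Sult1b1 at the low dose (-0.50) and Ugt1a6 at the high dose (-0.65) under that correction. Gstt1 stood at 487, 443 and 582 and Gstt3 at 3375, 3001 and 3660, so both were below control at the low dose and above it at the high dose. The other probe of Gstt3 gave 296, 273 and 333, with the same order of arrays.

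The promoter of Gstp1 is shown because it carries the antioxidant core close to the start while the gene stood below control on both treated arrays. The core lies at -61. The sequence is chr1:210769706-210769825 (minus strand, GRCr8, RefSeq), the last 120 bases before the start, 5′ to 3′, with the core in capitals.
Gstp1: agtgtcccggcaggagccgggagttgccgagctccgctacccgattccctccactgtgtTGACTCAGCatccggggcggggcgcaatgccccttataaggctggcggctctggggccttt

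**Figure D3:**
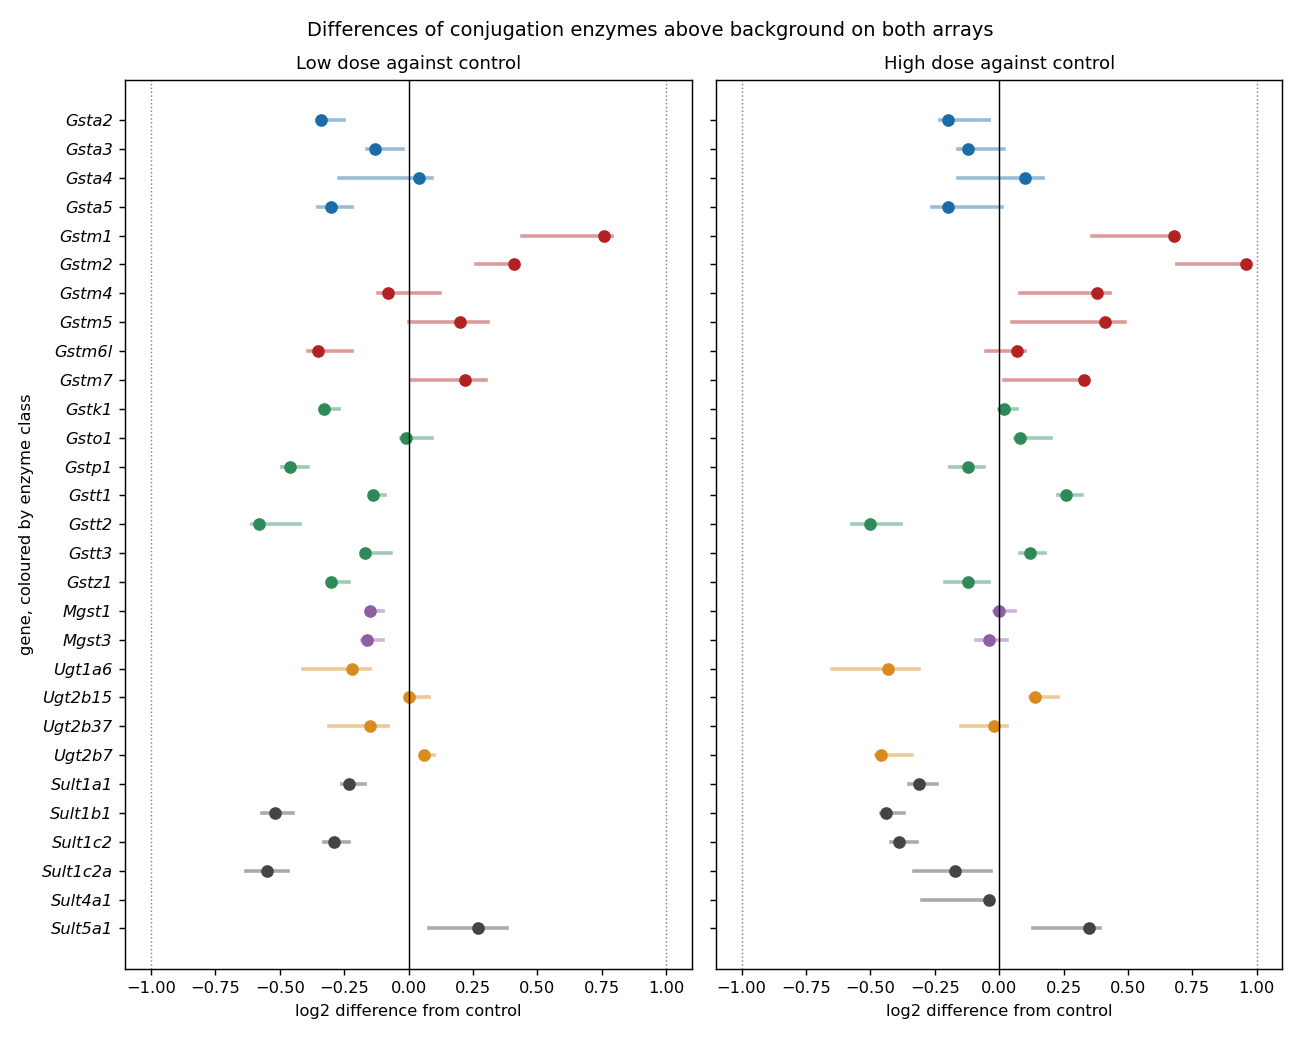
Log2 difference from control of each conjugation enzyme above background on both arrays (28 at the low dose, 29 at the high dose), coloured by class. Points are the values reported and bars the lowest and highest value over up to 11 other ways of processing; dotted lines mark 2-fold, which no point reaches, and most bars of the mu class extend toward 0.

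Sulfotransferases of the SULT1 family stood below control at both doses. They transfer sulfate to phenols, catechols, thyroid hormones and steroids. Sult1b1, which acts on phenols and thyroid hormones, had an intensity of 2539 in control, 1770 at the low dose and 1865 at the high dose, 1.43-fold and 1.36-fold lower. Its other probe gave 2097, 1563 and 1718. Sult1c2a stood at 18999, 13009 and 16872, and its other probe at 14132, 8565 and 10012. Both probes thus put the low dose lowest, but the high dose was at -0.17 by the former and -0.50 by the latter. Sult1c2, a gene known for its expression in kidney, stood at 7211, 5884 and 5498, and Sult1a1, the phenol sulfotransferase, at 1082, 924 and 873. In these 2 genes the high dose was the lowest array. The 4 SULT1 genes stood below control at both doses under each of the 11 alternatives that kept the filter on background.

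The other 2 measured sulfotransferases were dim. Sult5a1 stood at 47.9, 57.6 and 61.1, above control by 0.27 and 0.35, and by 0.08 and 0.13 with normexp. Sult4a1, a form best known from brain, was at 36.5 in control, 35.6 at the high dose and not above background at the low dose, where its intensity was 20.2 and its signal-to-noise ratio 2.5. Against that low-dose value, control was 1.81-fold higher and the high dose 1.76-fold higher, and these folds are not lower bounds. With normexp these differences shrank to 0.36 and 0.20 (log2). Over the family the median was -0.29 at the low dose and -0.24 at the high dose.

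UDP-glucuronosyltransferases sit in the endoplasmic reticulum, and genes of the UGT1 locus share their last exons. Both probes named Ugt1a6 match Ugt1a5, Ugt1a6 and Ugt1a7c, so these transcripts were not told apart. The brighter probe stood at 5728 in control, 4903 at the low dose and 4239 at the high dose, and the other at 1128, 858 and 991. Both placed the doses below control, the first by 0.22 and 0.43 and the second by 0.40 and 0.19, and they disagreed on which dose was lower. With correction for position on the array the brighter probe was at -0.41 and -0.65. Ugt2b7 stood at 253, 264 and 184, so the high dose was lowest, at -0.46 from control, 3.83 times the spot spread. The gene named Ugt2b15 in the files, Ugt2b35 in current RefSeq, stood at 684, 686 and 754, and Ugt2b37 at 392, 353 and 386, and both differed from control by at most 0.15.

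**Figure D4:**
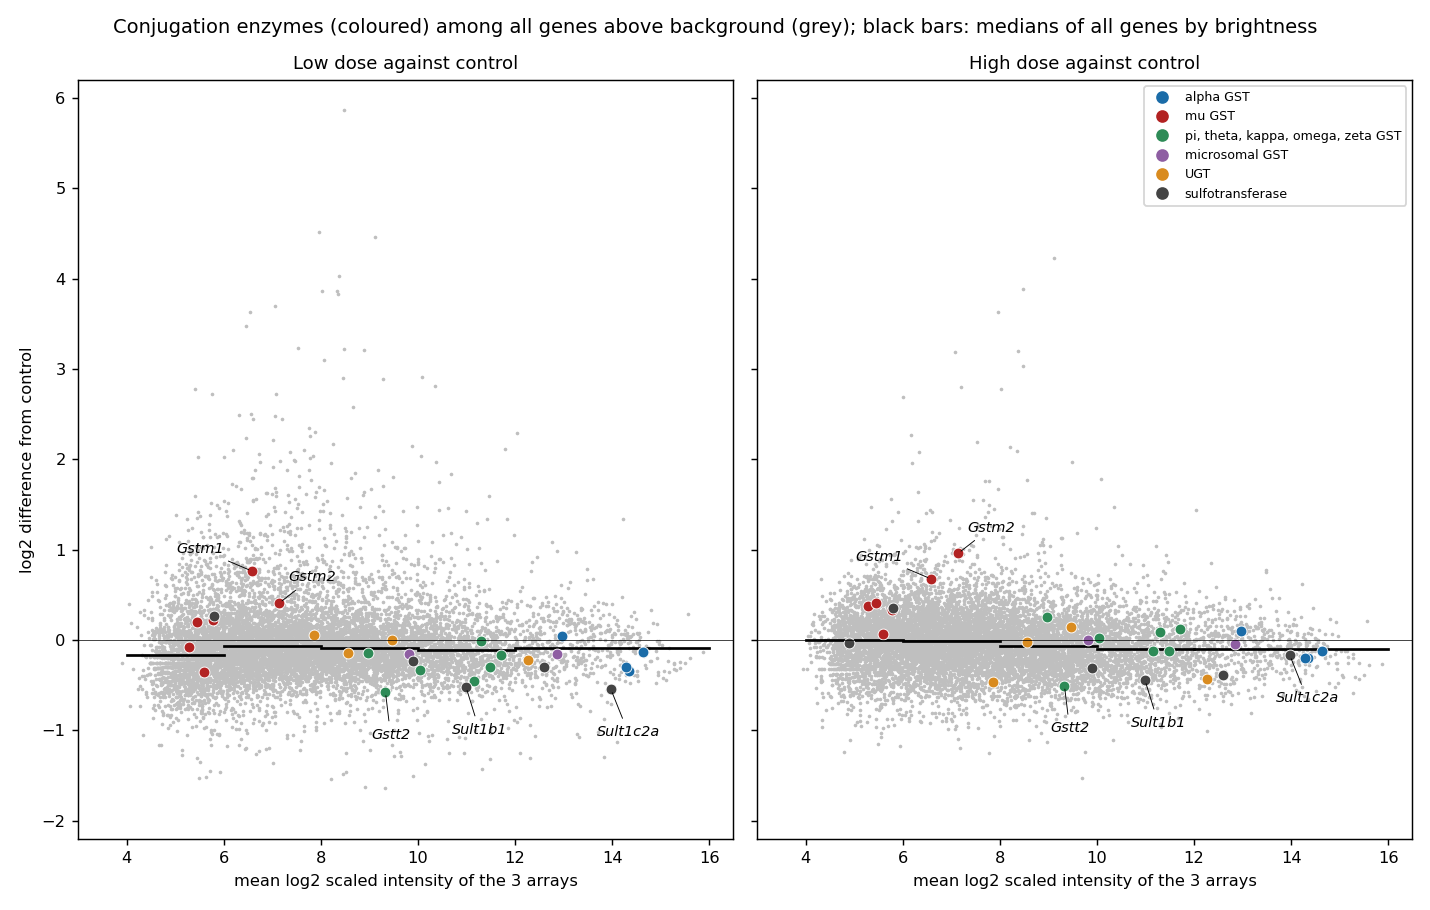
Log2 difference from control (vertical axis) against the mean log2 scaled intensity of the 3 arrays (horizontal axis) for all genes above background on both arrays (grey) and the conjugation enzymes (coloured by class). Black bars are the medians of all genes within bands of brightness; at the low dose all but 1 of the 14 enzymes with a mean of 10 or more lie below 0, while Gstm1 and Gstm2 are dimmer and lie above it.

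The enzymes divided by brightness as well as by class, but the divisions overlap. All 6 measured mu class genes had a mean log2 intensity under 8, so for them class and brightness cannot be told apart. Among the 14 enzymes with a mean log2 intensity of 10 or more, 13 stood below control at the low dose with a median of -0.30, where 65.4% of 1852 genes that bright were below control with a median of -0.11. The exception was Gsta4. At the high dose 10 of the 14 stood below control and their median was -0.12, where 64.1% of genes that bright did with a median of -0.10. Among the enzymes with a mean under 8, 6 of 8 stood above control at the low dose and 7 of 9 at the high dose. Of all genes that dim, 63.2% and 51% stood below control at the low and high dose, with medians of -0.11 and -0.01. Among these dim enzymes, normexp left Gstm5 and Gstm7 within 0.05 of control at both doses and Gstm1 and Gstm2 above it.

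Set against the spot spread of its brightness, 2 enzymes lay more than 2 spot SD above control at the low dose and 10 below. Those below were Gsta2, Gsta5, Gstk1, Gstp1, Gstt2, Gstz1, Sult1a1, Sult1b1, Sult1c2 and Sult1c2a. The share below was 35.7% of 28 enzymes, and it was 28% of all genes, while 15.8% of all genes lay that far above. At the high dose 4 enzymes lay above by that measure, where 16.8% of all genes did, and 6 below, where 24.5% did. The 4 were Gstm1, Gstm2, Gstm5 and Gstt1, and the 6 were Gstt2, Sult1a1, Sult1b1, Sult1c2, Ugt1a6 and Ugt2b7. In all, 20 of 28 enzymes stood below control at the low dose and 15 of 29 at the high dose, and for all genes the shares were 63.6% and 55.8%. The sign was the same under every alternative that kept the filter on background for 23 of the 28 at the low dose and 21 of the 29 at the high dose.

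The direct comparison of the doses asked whether more hydrolysate went with a different level. The high dose stood above the low dose in 23 of 29 enzymes, with a median of 0.11, and below it in 6, which were Gstm1, Mgst2, Sult1a1, Sult1c2, Ugt1a6 and Ugt2b7 (in up to 8 enzymes under alternatives that kept the filter on background). Over all genes the median was 0.04, and 44.9% stood below the low dose. Of these 29, which were above background at both doses, none was 2-fold apart, where 0.474% of all genes were higher and 1.49% lower, and none was at least 1.5-fold higher, where 4% were. Sult4a1, not above background at the low dose, is outside this count. The low-dose array held the lowest value of the 3 in 17 of 28 enzymes, and in 42.8% of all genes. All 3 comparisons share arrays, so these counts are not independent of each other.

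Genes of glutathione synthesis and recycling, a list that also holds enzymes that break glutathione down, had a median farther below control than the conjugation enzymes had. The largest single differences among them were at the low dose. Gclc, the catalytic subunit of glutamate-cysteine ligase, which sets the rate of glutathione synthesis, had an intensity of 25923 in control, 11816 at the low dose and 17649 at the high dose, with differences of -1.13 and -0.55. Gclm, its modifier subunit, stood at 166, 72.0 and 149, with -1.20 and -0.15, and with normexp its low-dose difference was -0.82. Gss, glutathione synthetase, stood at 1219, 723 and 1162, and Ggt1, the brush border enzyme that breaks glutathione down outside the cell, at 6033, 3307 and 4172. Of 12 measured genes of glutathione synthesis and recycling (15 listed), 10 stood below control at each dose, with medians of -0.53 and -0.20. For all genes the shares below control were 63.6% and 55.8%, which also apply to the lists that follow. At the low dose 2 were at least 2-fold lower, Gclc and Gclm, and none at the high dose. Each of these 4 genes was lowest at the low dose and nearer to control at the high dose. The low dose was the lowest array in Gstp1 and Gstk1 too.

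At the low dose the lists for supply of the other cosubstrates had medians nearer to control than the glutathione list had. Among 12 genes of UDP-glucuronic acid supply and glucuronide hydrolysis, 8 stood below control at the low dose and 7 at the high dose, with medians of -0.30 and -0.04. These counts are near the shares over all genes. Ugdh, which makes UDP-glucuronic acid, stood at 476, 355 and 431. Among 12 measured genes of the supply of PAPS, the sulfate donor, and sulfate handling (14 listed), 11 and 9 stood below control, with medians of -0.20 and -0.16. The PAPS synthases Papss1 and Papss2 were at -0.14 and -0.31 at the low dose and at 0.24 and 0.09 at the high dose. Sts, steroid sulfatase, was at -0.81 and -0.89, and the sulfate carrier Slc26a1 at -0.51 and -0.75.

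Conjugating enzymes outside the families above, which methylate, acetylate or add amino acids, stood below control at the low dose in 15 of 16 measured genes (19 listed), with a median of -0.37. At the high dose 8 of the 16 did, with a median of 0.01. Hnmt, histamine N-methyltransferase, stood at 1029 in control, 423 at the low dose and 1177 at the high dose, with differences of -1.28 and 0.19. Nat8, which acetylates cysteine conjugates made from glutathione conjugates, stood at 20430, 11113 and 13429. Among 10 measured genes of a list of conjugate exporters and other transporters (12 listed), 7 stood below control at the low dose and 9 at the high dose. Their medians were -0.35 and -0.39. The export pump Abcc4 stood at 713, 574 and 420, and Abcb1b at 229, 153 and 121. Abcc5 was the exception at the low dose, with 133, 355 and 158.

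The regulators of conjugation enzymes differed little where they were measured. Nfe2l2, which encodes NRF2, stood at 892, 822 and 888, and its inhibitor Keap1 at 82.2, 73.0 and 81.2. Nr1i2, the pregnane X receptor, stood at 458, 313 and 295, with -0.55 and -0.64. Ahr, Arnt, Nr1i3, Rxra and Bach1 had no value above background on any array. Among 13 measured oxidoreductases that are known NRF2 or AHR targets (16 listed), the median was -0.09 at the low dose, with 9 below control, and -0.18 at the high dose, with 8 of 12 below. Nqo1, a standard NRF2 target, stood at 33.1, 32.7 and 34.7. Hmox1, heme oxygenase, stood at 53.2, 92.2 and 46.9, and Gpx2, a glutathione peroxidase of epithelia, at 322, 892 and 311, so both were high at the low dose alone. Akr7a3, an aldehyde reductase, stood at 15201, 8787 and 12571.

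**Figure D5:**
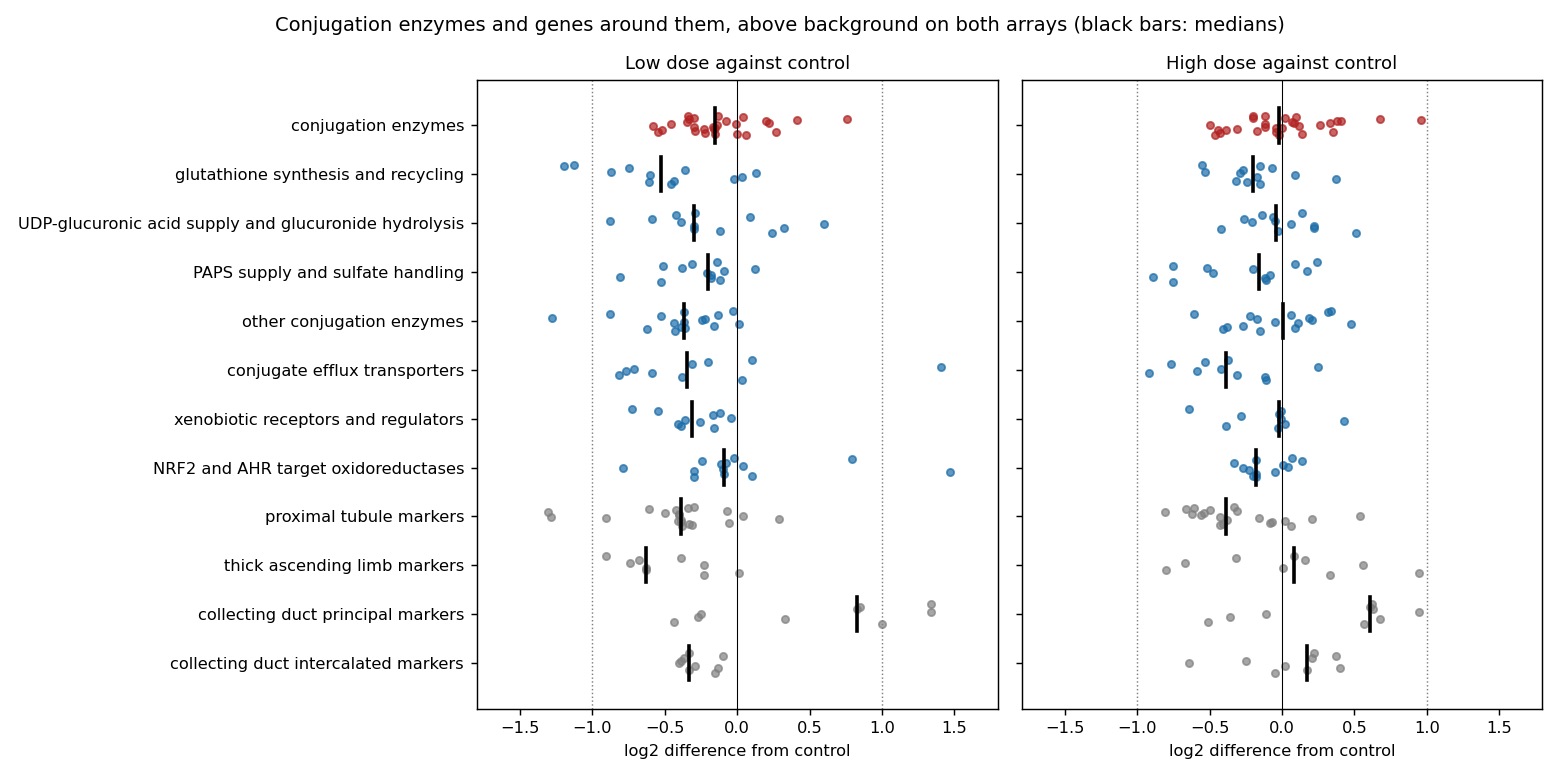
Log2 difference from control (horizontal axis) of the conjugation enzymes (red), genes of 7 lists around them (blue) and markers of 4 tubule segments (grey), each point 1 gene above background on both arrays and each black bar the median of a list. At the low dose the glutathione list has a median of -0.53 and the conjugation enzymes -0.15; proximal tubule markers have a median of -0.39 at both doses.

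Markers of the tubule segments in which these enzymes are found differed between the arrays as well. The 20 proximal tubule markers summed to 298027 in control, 245586 at the low dose and 240325 at the high dose. Their median was -0.39 at each dose, with 18 of them below control at the low dose and 16 at the high dose. Slc22a2 and Slc7a13 were at least 2-fold lower at the low dose. Thick ascending limb markers (9 of 10 measured) had medians of -0.63 and 0.08, and intercalated cell markers of the collecting duct (9 of 9) medians of -0.33 and 0.17, and both were thus lowest at the low dose. Principal cell markers (9 of 9) stood higher at both doses, with medians of 0.83 and 0.61, as did thin limb markers (6 of 7), with 1.68 and 0.95. The 4 SULT1 genes and 3 of 4 alpha class genes lay below control at both doses, as did the proximal tubule list. The medians of the podocyte list (-0.30 and -0.31) and the distal convoluted tubule list (3 of 5 measured, -0.21 and -0.59) did too. Of the enzymes above background on all arrays, 13 of 28 (46.4%) were highest in control. This is near the share over all genes above background on all arrays, 44.7%. The pi, theta, kappa, omega and zeta classes were lowest at the low dose, as were the thick ascending limb and intercalated cell lists. The part of the segments in these values was not tested. Hepatocyte markers were nearly unmeasured, with 2 of 8 above background on any array, and Alb, albumin, reached 19.2 at the low dose and was not above background on the other arrays.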

How the data were processed

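Each of 3 Agilent rat arrays holds Cy3-labelled kidney cRNA of 1 pool. Per the file headers, the authors deposited each spot's intensity at 532 nm, read by GenePix Pro 6.1.0.4 (photomultiplier setting 550), with a background of 39, 40 and 39 (control, low and high dose) subtracted by the software. Agilent Feature Extraction is the tool in the submitters' processing notes, but the columns are those of GenePix. Per the file headers, the deposited score columns are each spot's flag and signal-to-noise ratio, and a percent column gives its saturated pixels. A log2 table was deposited by the authors as well, whose columns have a median of 4.77 each and correlate best with their own arrays (r of 0.999, 1 and 1); its scaling and centring are not given in the sources used here.

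Control spots, bright spots flagged as not found (6, 5 and 6) and spots of non-uniform signal, with over 1.5-fold between net pixel mean and net pixel median (166, 139 and 80), were removed. Net means were averaged per probe, scaled to equal 75th percentiles (factors 1.14, 0.96 and 0.912), raised to 1 where lower, and log2 was taken. A gene took its brightest probe above background, by the name in the files. Where 1 array was not above background, the fold was taken against the higher of the probe's value there and the lowest value above background. For Mgst2 and Sult4a1 this was the probe's own value, so the fold is a plain ratio. Spot spread is the median SD, over probes printed on 10 spots, of the log2 difference between arrays, by bands of brightness. The steps were tested on simulated data. The arrays shared 1 slide, where each group has its own position, so these cannot be told apart. A mouse design is named in the high-dose header, but the annotation there is that of the other arrays. Python 3.11.15, pandas 2.3.3, numpy 2.4.6 and limma 3.58.1 in R 4.3.3 were used. Alternatives were 11 planned ones and 1, correction for position in 16 by 16 blocks, chosen after seeing the data. Enzymes differing by 1.5-fold in any comparison were described first, and up to 4 genes of each list were named by size. Gclc, Gclm, Ugdh, Papss1, Papss2, Nqo1, Hmox1 and Nfe2l2 were named whatever their value, and Keap1 after its values were seen. The members and gene lists were chosen with earlier results of these data known.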

Additional observations from a re-analysis of the deposited data

How the results depend on the processing

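Counts past 2-fold and median differences of the conjugation enzymes were recomputed under 12 alternatives, giving 108 values, of which 101 stayed close to those reported and 7 moved. All 7 came from leaving out the filter on background. The counts of enzymes at least 2-fold higher and lower were then 3 and 7 at the low dose against control, 3 and 3 at the high dose against control and 7 and 1 between the doses (high against low), and the low-dose median was -0.29. These counts include probes that are not above background on any array. Of 347 values of single enzymes, 322 stayed within the spot spread of the value reported and 25 moved by more. The median of the enzymes at the high dose, -0.02, was 0.02 with quantile normalization. Over the alternatives that kept the filter, the sign was the same throughout for 23 of 28 enzymes at the low dose, 21 of 29 at the high dose and 26 of 29 between the doses. Normexp changed dim genes most: Gstm1 and Gstm2 moved to 0.36 and 0.69 at the high dose. No paired analysis was possible because each group has 1 array. For the same reason no replicate could be left out. With normexp the mu class median at the high dose was 0.06 and that of the pi, theta, kappa, omega and zeta classes 0.07, and at the low dose the medians were 0.00 for the mu class and 0.05 for the UGT2 genes, so the mu class was no longer highest. It was the highest class under the other 11 alternatives at both doses. Signal over background limits Mgst2 in control, Sult4a1, Sult5a1 and the mu class genes. The signal-to-noise ratio in control was 5.09 for Gstm1 and 9.56 for Gstm2.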

Other observations

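Related genes outside the families above differed little. Gstcd, which has a GST-like domain, stood at 69.0 in control, 71.6 at the low dose and 80.4 at the high dose. Ugt8, the galactosyltransferase that makes galactosylceramide, stood at 40.0, 40.3 and 41.0.

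The export pump Abcc5 gave unlike values by its probes. The probe printed on 10 spots was 1.41 (log2) above control at the low dose and 0.25 at the high dose, and a dimmer probe with 1 spot 0.52 and 0.65. Gpx2 was higher at the low dose by both its probes, at 1.47 and 1.79, and at the high dose they stood at -0.05 and 0.40.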
